A study of Mus musculus with 12 samples.

Results

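The 50 genes described here encode glycoproteins and proteoglycans of the extracellular matrix, proteins of elastic fibres, enzymes that fold, modify and crosslink collagen, and matrix proteases with their inhibitors. They were chosen by name, and all 50 were found among the 57010 genes measured by RNA-Seq. The cells were NE-4C, an adherent neural progenitor line made from embryonic mouse brain and lacking p53, in 4 groups with 3 libraries each from independent passages. WT NO and KO NO cells were collected untreated, at day 0. WT RA and KO RA cells were exposed to 1 µM all-trans retinoic acid (RA) for 24 h, kept without RA and collected on day 3 after induction. KO cells came from 1 line, grown from a picked colony after CRISPR/Cas9 removed exon 4 of Faf2, which encodes an endoplasmic reticulum protein of protein degradation. All 4 groups share the NE-4C background, the loss of p53 and a medium with serum. With 1 KO line, genotype cannot be told apart from other differences between the lines, and with treated cells collected 3 days later, RA cannot be told apart from time in culture.

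The extracellular matrix is the secreted scaffold around cells. Collagens and elastic fibres give it strength and recoil, proteoglycans hold water and growth factors in it, and adhesive and matricellular glycoproteins connect it to integrins and other receptors. Collagen chains are hydroxylated and folded in the endoplasmic reticulum, trimmed outside the cell and then crosslinked by lysyl oxidases, while metalloproteases and their tissue inhibitors set how fast the network is broken down. In the embryonic brain the matrix is poor in fibrillar collagen and rich in basement membrane at its surfaces and in hyaluronan-binding proteoglycans such as versican.

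Library totals ranged from 17370069 to 30738717 estimated counts. Levels are given as CPM, the count of a gene relative to the TMM-scaled total of its library, which here can be compared between genes because the deposited counts are corrected for gene length. Of the 50 genes, 45 passed the filter on low counts and were tested among 16502 genes. Fmod, Prelp, Eln, Mfap5 and Adamts5 did not pass, with at most 1.19 CPM in any library. A gene was called when its adjusted p in edgeR's quasi-likelihood test (Benjamini-Hochberg adjustment over all genes tested) was under 0.05. Differences are log2 fold changes with their standard errors (SE). In these bulk libraries, fewer cells of a type and less RNA per cell cannot be told apart.

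WT NO replicate 3 and KO RA replicate 3 stood apart from their groups and are named with each result that rests on them. KO RA replicate 3 had a TMM factor of 0.394 against 0.872 to 1.28 in the others, and 62.5% of its counts fell on the top 100 genes, against 37.1 to 50.4%. WT NO replicate 3 deviated from the other WT NO libraries by a median of 0.323 log2 units over all genes, against 0.214 and 0.218 for those, and KO RA replicate 3 from its group by 0.858, against 0.489 and 0.465. The progenitor markers Nes, Sox1, Sox2, Pax6, Otx2, Cdh2 and Msi1 summed to 180.6 to 391 CPM per library, but not each was high. Sox1 was at 0.598, 0.813 and 0.152 CPM in WT NO and 0.234, 0.118 and 0.307 in KO NO. Pax6 was at 0.79, 1.095 and 2.01 CPM in KO NO, called lower than in WT NO (log2 fold change -2.504, adjusted p = 0.0264, edgeR). Pou5f1, a pluripotency gene, was also at 799 to 2773 CPM throughout. The targeted gene, Faf2, was at 49.98, 38.8 and 35.9 CPM in WT NO against 21, 21.7 and 25.4 in KO NO, and at 35.1, 37.8 and 49.03 in WT RA against 36.1, 34.3 and 18.7 in KO RA. The untreated groups were apart, with a log2 fold change of -0.87 (adjusted p = 0.179, edgeR), and the treated groups overlapped. A count of the whole gene does not separate exon 4, so it is a weak check of the labels.

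Both libraries also stood apart over the 45 matrix genes tested. The median absolute deviation over these genes was 0.871 log2 units in WT NO replicate 3, against 0.323 over all genes. In KO RA replicate 3 it was 0.615 against 0.858, smaller than over all genes. The shares of all genes beyond 1 log2 unit were not counted. In WT NO replicate 3, 14 of the 45 were more than 1 log2 unit above the other WT NO libraries, led by Fbln2 at 21.1 CPM against 0.458 and 0.0739, Mfap4 at 31.6 against 3.52 and 1.55, and Timp1 at 42.0 against 4.33 and 4.06. In KO RA replicate 3, 7 were more than 1 unit above and 9 more than 1 unit below. Postn was at 80.7 CPM there against 5.37 and 1.80, Dcn at 345 against 23.0 and 12.7, and Fbln1 at 13.4 against 90.2 and 74.9. Genes of contractile cells (Acta2, Tagln, Cnn1, Myl9 and Des) moved with these libraries, summing to 1261 CPM in KO RA replicate 3 against 250.8 and 151 in its group, and to 105.6 in WT NO replicate 3 against 29.1 and 11.05. Their part in the results below was not tested.

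**Figure D1:**
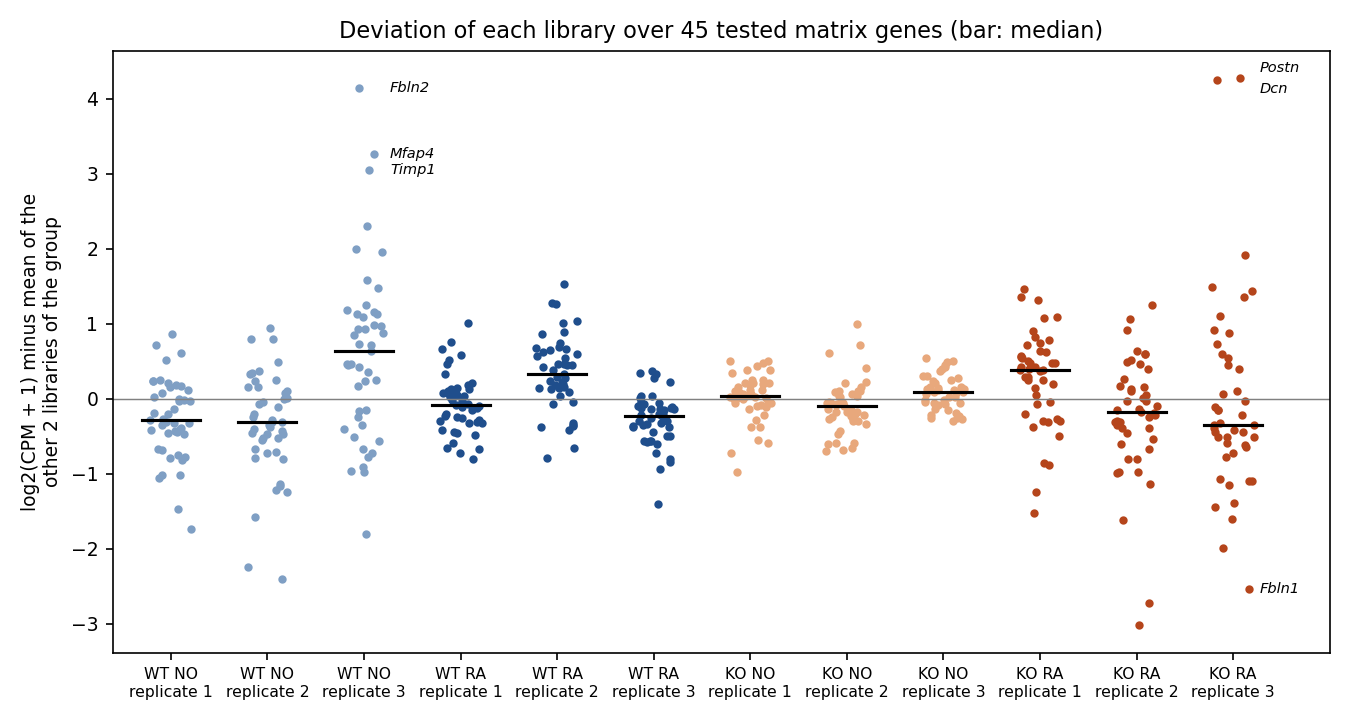
Each dot is 1 of the 45 tested matrix genes in 1 library. The y axis is log2(CPM + 1) minus the mean of the other 2 libraries of the group, the bar is the median over genes, and the genes farthest out are named in WT NO replicate 3 and KO RA replicate 3. In the KO NO libraries every gene lies within 1 log2 unit of 0, while WT NO replicate 3 reaches 4.14 (Fbln2) and KO RA replicate 3 reaches 4.27 (Postn).

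The stretch before the start of 4 genes is shown, so that Postn, Nid1 and Thbs2, called in the same comparison, can be compared there. Ccn1 was called in another comparison. RefSeq promoter windows (250 bases before to 50 after the start, made on GRCm38.p6) were found for 32 of the 50 genes, 9 of them among genes called in some comparison. Shown are the called genes with at least 100 bases upstream of both the RefSeq start and the outermost GENCODE transcript. They are placed in GRCm39 by exact match and written 5′ to 3′ on the gene's strand. Ccn1 was called between genotypes after RA, and Postn, Nid1 and Thbs2 in the RA response of KO cells. Each call was lost under more of the other settings than it was kept. Lost and kept were 13 and 8 for Ccn1, 11 and 9 for Postn, 12 and 9 for Nid1, and 12 and 8 for Thbs2. Capitals mark the TEAD core CATTCC and the GC box GGGCGG, in either orientation.
Ccn1, chr3:145355741-145355990, minus strand: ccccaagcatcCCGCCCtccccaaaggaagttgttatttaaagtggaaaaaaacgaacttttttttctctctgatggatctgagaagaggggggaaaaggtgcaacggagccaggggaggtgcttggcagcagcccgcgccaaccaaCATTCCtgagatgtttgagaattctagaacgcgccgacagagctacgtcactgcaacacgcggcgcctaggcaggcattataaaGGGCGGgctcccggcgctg
Postn, chr3:54268278-54268500, plus strand: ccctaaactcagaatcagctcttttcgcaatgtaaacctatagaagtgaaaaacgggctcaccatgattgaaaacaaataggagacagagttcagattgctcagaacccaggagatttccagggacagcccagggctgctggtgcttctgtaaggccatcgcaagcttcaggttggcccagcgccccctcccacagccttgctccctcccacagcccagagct
Nid1, chr13:13611937-13612070, plus strand: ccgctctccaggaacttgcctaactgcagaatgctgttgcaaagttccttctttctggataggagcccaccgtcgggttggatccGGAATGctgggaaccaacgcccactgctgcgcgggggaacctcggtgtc
Thbs2, chr17:14914529-14914774, minus strand: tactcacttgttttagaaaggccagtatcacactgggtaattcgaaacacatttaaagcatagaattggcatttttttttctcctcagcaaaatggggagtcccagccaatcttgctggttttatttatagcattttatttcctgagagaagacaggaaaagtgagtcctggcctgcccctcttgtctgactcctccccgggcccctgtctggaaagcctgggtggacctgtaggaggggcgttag
Ccn1 held a TEAD core 103 bases before its RefSeq start and GC boxes at 239 and 19 bases, Nid1 held a TEAD core at 165 bases, and the Postn and Thbs2 stretches held none of the 5 motifs searched. Over full 300-base windows on both strands, CATTCC was in 5 of the 40 windows of matrix genes (Ccn1, Mfap2, Nid1, Ogn and Timp1) and in 14.7% of all 32851 windows. The GC box was in 29 of 40 and in 35.7% of all, the hypoxia response core ACGTG in 9 of 40 and 19.6% of all, the AP-1 site TGANTCA in 1 of 40 (Efemp1) and 7.81% of all, and the CArG box, which binds SRF, in 0 of 40 and 1.63% of all. A match is a string of letters and not evidence of binding.

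Summed over the 50 genes, the level was 842 ± 151 CPM (SD, n = 3) in WT NO against 1010 ± 102 in KO NO, and 919.6 ± 129 in WT RA against 1758 ± 274 in KO RA. Every KO RA library (1735, 1497 and 2043 CPM) was above every library of the other groups, of which the highest was 1083. For KO RA replicate 3, the 2043 CPM rested on its TMM factor of 0.394 and included Dcn at 345 and Postn at 80.7 CPM. A few genes carried much of each sum, the leading 5 holding 43.9 to 66.9% of it. Sparc, a collagen-binding glycoprotein, was the highest in WT NO, WT RA and KO NO, at 189 ± 21.4, 146 ± 38.7 and 228 ± 55.8 CPM, and in each of them its libraries lay above those of the next gene. In KO RA the highest mean was that of Serpinh1, the collagen chaperone HSP47, at 278 ± 58.8 CPM against 187 ± 29.2 for Sparc. Their ranges were narrowly apart, with the lowest Serpinh1 library at 212.9 CPM and the highest Sparc library at 211.7. In KO RA replicate 3, Dcn at 345 CPM was above Serpinh1 at 328. Below the highest gene of a group the order of neighbours was mostly not resolved. In WT NO the ranges of Nid2, Ccn1, Serpinh1, Fn1 and Pcolce overlapped from one to the next. In KO RA 29 genes had a mean over 10 CPM, against 21 in each of the other groups.

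Between genotypes without treatment, 2 of the 45 tested genes were called, both higher in KO NO: Loxl1, a lysyl oxidase of elastic fibres, and the matricellular glycoprotein Ccn2. Over all genes tested 0.788% were called higher and 0.351% lower. The other 43 did not pass the test. The median over the 45 was -0.32, against -0.02 over all genes. An unadjusted p under 0.05 was reached by 5 genes higher in KO and 11 lower, against 5.81% and 6.37% of all genes. The groups did not overlap for 6 genes higher and 11 lower, against 15.5% and 15.2% of all genes. Without KO RA replicate 3 the count called was 4 higher (Nid2 and Serpinh1 beside Loxl1 and Ccn2) and 4 lower (Pxdn, Vcan, Pcolce and Fbn2), against 4.79% and 4.82% of all genes, and without WT NO replicate 3 it was 4 higher and 0 lower (1.04% and 0.376% of all genes) with a median of 0.13. Without both libraries it was 8 higher and 4 lower (8.41% and 7.65% of all genes). DESeq2 called 4 higher and 4 lower (3.13% and 3.02% of all genes), and limma-voom with sample quality weights 10 and 6 (10.9% and 10.8% of all genes).

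Between genotypes after RA, 7 of the 45 were called, all higher in KO RA: the matricellular Tnc, Ccn1 and Ccn2, the proteoglycan Vcan, and Lox, Loxl1 and Serpinh1 of collagen folding and crosslinking. Over all genes tested 0.885% were called higher and 0.358% lower. No small leucine-rich proteoglycan (4 tested), elastic fibre gene (10 tested) or protease or inhibitor (6 tested) was called. The median difference was 0.80, against 0.09 over all genes. An unadjusted p under 0.05 was reached by 16 higher and 1 lower (10.9% and 6.67% of all genes), and the groups did not overlap for 16 higher and 1 lower (9.96% and 10.9% of all genes). The count was 11 higher without KO RA replicate 3 (4.79% of all genes, with 5.73% lower) and 10 without WT NO replicate 3 (1.96% of all genes, with 0.806% lower). It was between 1 and 4 when KO RA replicate 1, any 1 WT RA library or any 1 KO NO library was left out, where 0.121 to 0.588% of all genes were called higher. Without both libraries that stood apart it was 17 higher and 2 lower (9.63% and 9.79% of all genes). DESeq2 called 15 higher and 0 lower (5.02% and 2.95% of all genes), and limma-voom 21 and 1 (9.79% and 8.31% of all genes). Under other settings the calls were kept in 20 of 20 for Loxl1, 18 of 21 for Ccn2, 17 of 21 for Tnc, 13 of 21 for Vcan, 12 of 20 for Lox, 12 of 21 for Serpinh1 and 8 of 21 for Ccn1.

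**Figure D2:**
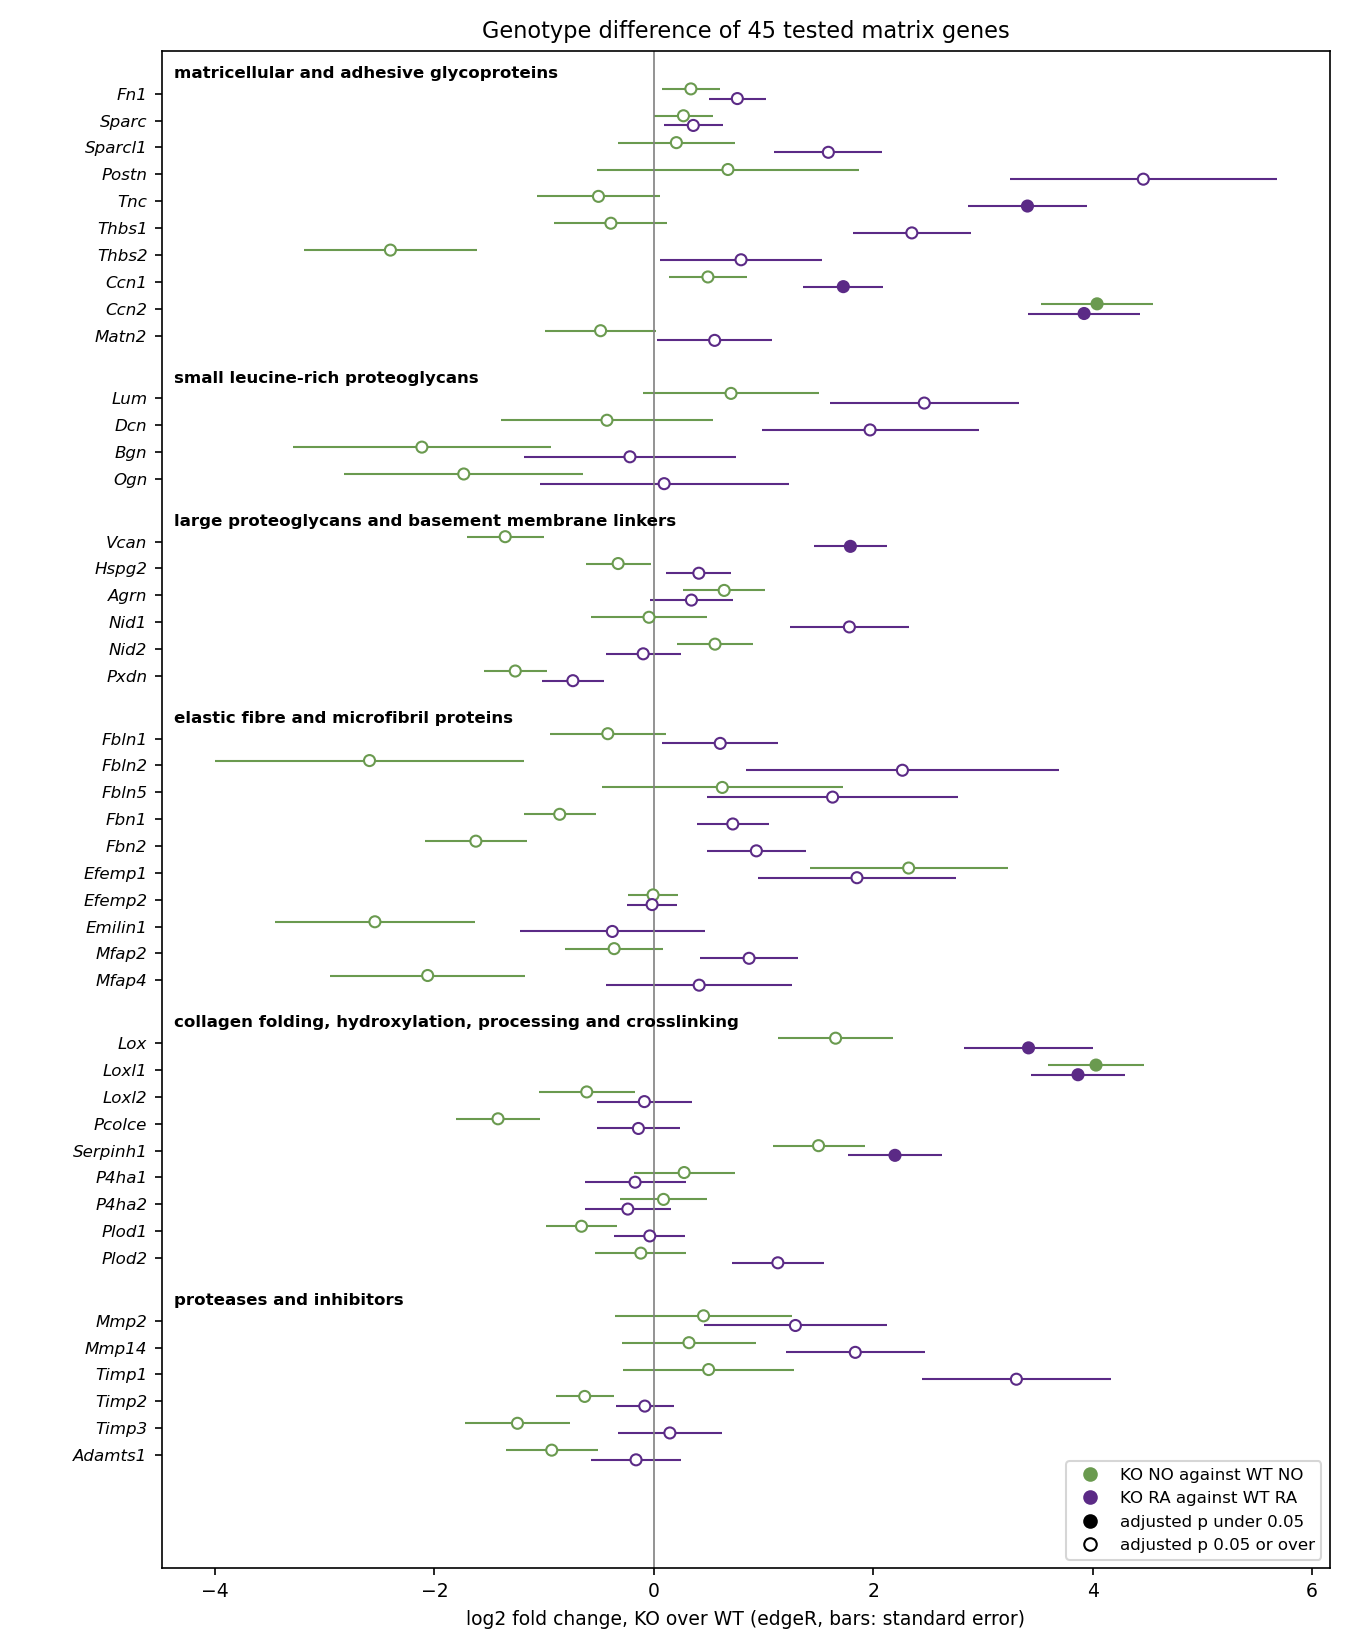
Log2 fold change of KO over WT for the 45 tested matrix genes (x axis), ordered by role, in untreated cells (green) and after RA (purple). Points are edgeR estimates from 3 libraries a group, bars are 1 SE, and filled points have an adjusted p under 0.05, which holds for 2 genes untreated and 7 after RA, all to the right of 0.

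The RA response of WT cells held 1 call among the 45, Sparcl1, which was higher in WT RA. Over all genes 0.321% were called higher and 0.0848% lower. The median was 0.20 against -0.01 over all genes, and it changed sign without WT NO replicate 2 (-0.0086) or WT RA replicate 2 (-0.17) and was 0.70 without WT NO replicate 3. An unadjusted p under 0.05 was reached by 10 higher and 4 lower (6.76% and 5.79% of all genes). The groups did not overlap for 12 genes higher and 3 lower (15.1% and 14.0% of all genes). Without KO RA replicate 3, which enters only the shared spread here, 7 were called higher and 0 lower (6.03% and 5.60% of all genes). Without WT NO replicate 1 none was called, and neither was any other gene (0% of all genes in each direction). Without both libraries that stood apart 14 were higher and 1 lower (9.40% and 9.69% of all genes), and without WT NO replicate 3 alone the count was 1 and 0 (0.0848% and 0.0182% of all genes). DESeq2 called 4 higher and 2 lower (3.10% and 2.50% of all genes), and limma-voom 13 and 1 (10.8% of all genes in each direction).

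In KO cells RA was followed by higher levels of 12 of the 45, and none was called lower. Over all genes 3.89% were called higher and 1.59% lower. They were 5 of 10 matricellular and adhesive glycoproteins (Sparcl1, Tnc, Postn, Thbs1 and Thbs2), 2 of 6 large proteoglycans and basement membrane linkers (Vcan and Nid1), 2 of 10 elastic fibre genes (Fbn2 and Mfap2), 2 of 9 genes of collagen modification (Plod2 and Loxl2) and 1 of 6 proteases and inhibitors (Timp2). No small leucine-rich proteoglycan was called. The median was 1.07 against 0.11 over all genes. An unadjusted p under 0.05 was reached by 23 higher and 1 lower (15.8% and 9.42% of all genes), and the groups did not overlap for 25 genes higher and 2 lower (13.2% and 16.9% of all genes). The count was 20 higher and 1 lower without KO RA replicate 3 (8.82% and 7.94% of all genes), 19 higher and 0 lower without WT NO replicate 3 (4.74% and 2.48% of all genes), and 4 or 5 higher without any 1 KO NO library (1.06 to 1.15% of all genes). Without both libraries that stood apart it was 27 higher and 1 lower (12.8% and 13.1% of all genes). DESeq2 called 21 higher and 1 lower (9.94% and 6.01% of all genes), and limma-voom 28 and 1 (15.1% and 12.3% of all genes). Under other settings the calls were kept in 21 of 21 for Vcan, Sparcl1 and Tnc, in 18 of 21 for Fbn2, Mfap2, Loxl2 and Plod2, in 17 of 21 for Thbs1 and Timp2, in 9 of 21 for Nid1, in 9 of 20 for Postn and in 8 of 20 for Thbs2.

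The test of the difference between the RA responses of KO and WT cells called none of the 45 genes and 0% of all genes. An unadjusted p under 0.05 was reached by 13 higher in KO and 0 lower, against 5.53% and 3.09% of all genes, and the median was 1.23 against 0.12. Both values rested in part on WT NO replicate 3. Without it 8 were higher and 0 lower, against 789 and 610 of all 16502 genes tested. The median was then 0.65 against 0.09 over all genes, with 0 called. It was 0.90 against -0.0045 without KO RA replicate 3, and 0.53 against -0.05 without both libraries. DESeq2 called 5 higher and 0 lower (1.30% and 0.576% of all genes), and limma-voom 7 and 0 (3.56% and 2.41% of all genes). Without KO RA replicate 3, edgeR called 4 with a larger response in KO (Vcan, Tnc, Pxdn and Fbn2), where 0.879% of all genes were called higher and 0.576% lower, and without both libraries that stood apart 6 (3.32% and 3.39% of all genes). The responses share no control samples, but they enter the same fit, and each is given with its own values below.

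**Figure D3:**
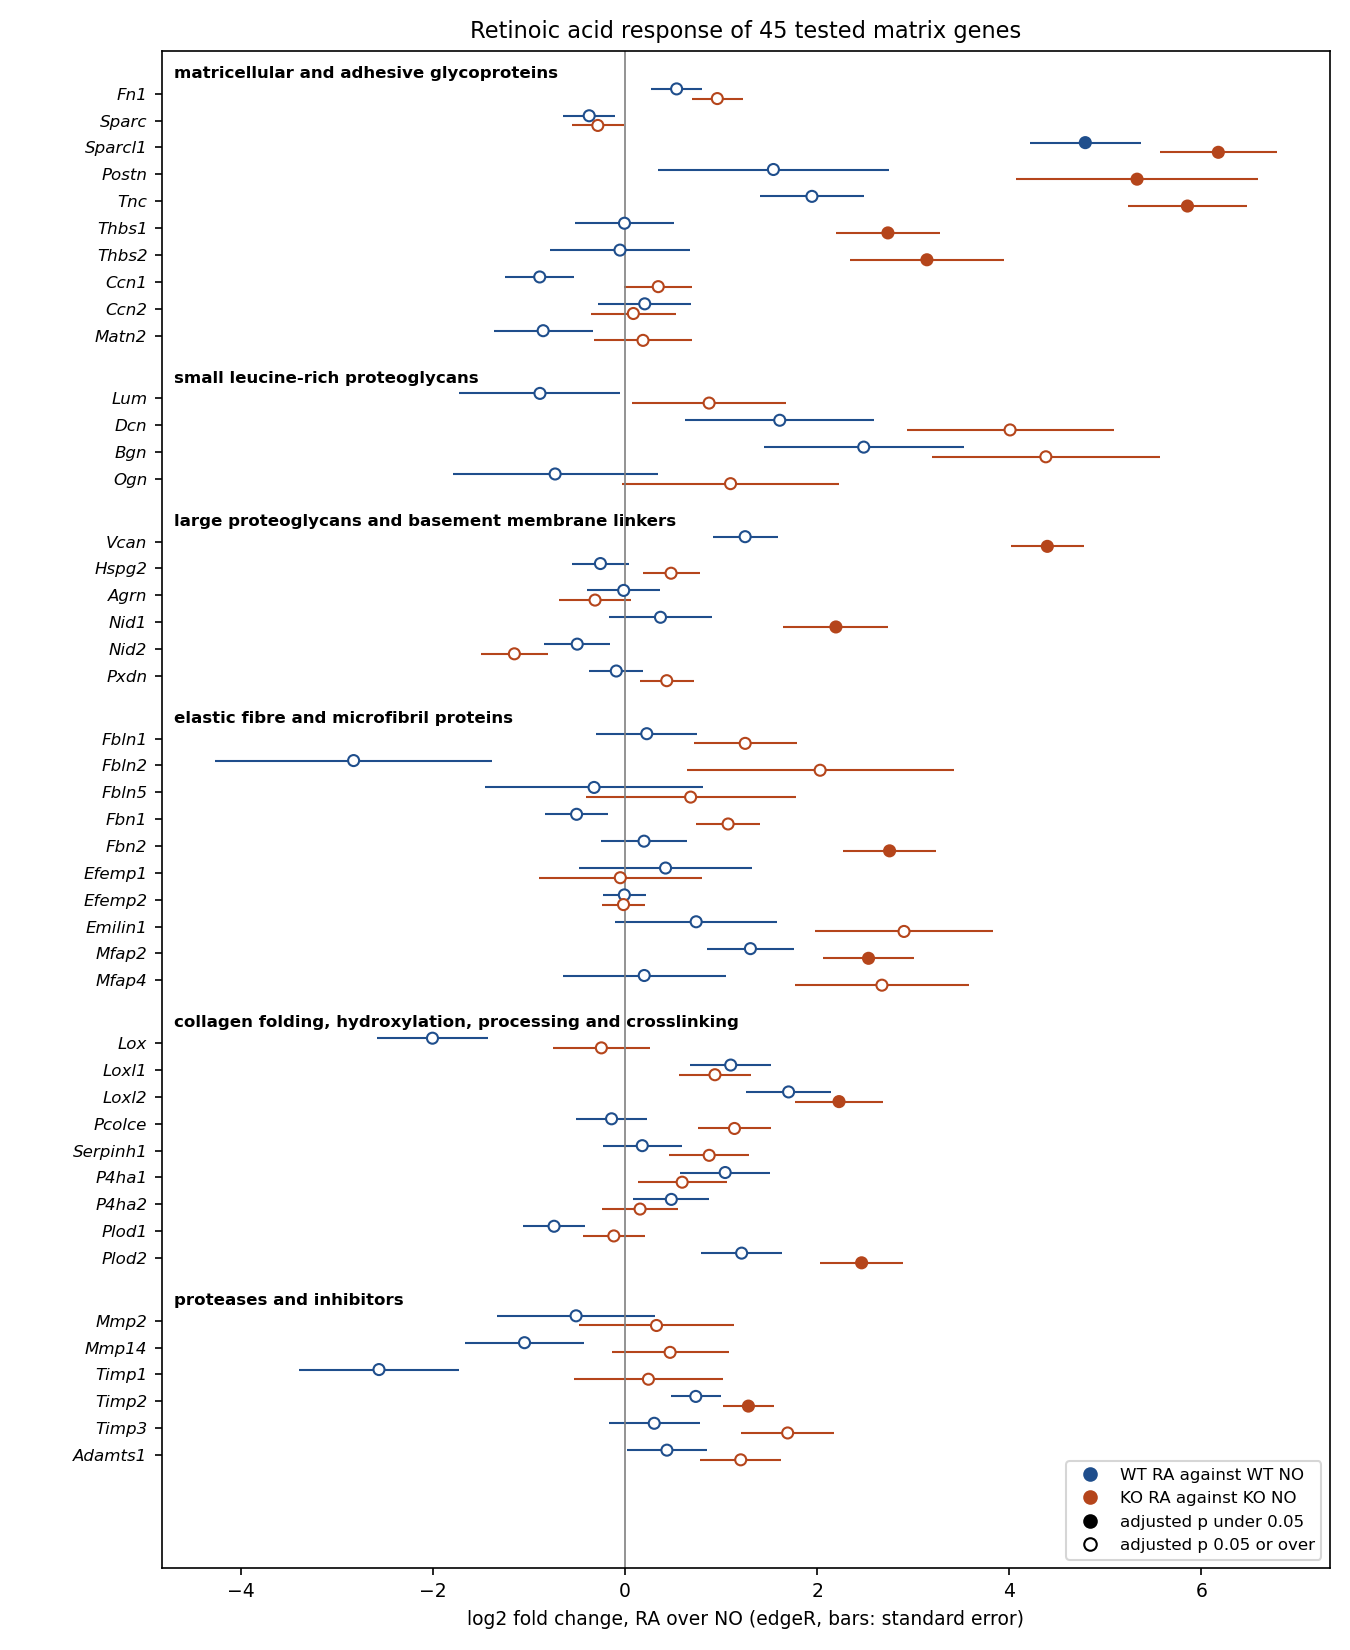
Log2 fold change of RA over untreated cells for the 45 tested matrix genes (x axis), ordered by role, in WT (blue) and KO (rust). Points are edgeR estimates from 3 libraries a group, bars are 1 SE, and filled points have an adjusted p under 0.05. Sparcl1 alone is filled in WT, and 12 genes are filled in KO, all to the right of 0.

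Among the matricellular glycoproteins, secreted proteins that modulate adhesion without building the scaffold, Ccn2 and Ccn1 of the CCN family differed between genotypes. Ccn2 (connective tissue growth factor, ENSMUSG00000019997, chr10:24471333-24474900 on GRCm39) was at 2.22, 1.88 and 0.549 CPM in WT NO against 31.6, 18.1 and 26.7 in KO NO, and 1.87, 1.26 and 2.196 in WT RA against 23.4, 18.7 and 39.2 in KO RA. All 6 KO libraries were above all 6 WT libraries, by 4.04 ± 0.51 (SE), adjusted p = 0.00484 (edgeR) without treatment and 3.92 ± 0.51 (SE), adjusted p = 0.0075 (edgeR) after RA. Ccn1 (chr3:145352720-145355738), whose promoter stretch is shown above, was at 85.5, 68.8 and 38.6 CPM in WT NO against 96.4, 67.3 and 108 in KO NO, and 25.4, 45.7 and 33.04 in WT RA against 125, 76.5 and 143 in KO RA. WT NO and KO NO overlapped (log2 fold change 0.49), and WT RA and KO RA were apart, by 1.73 ± 0.36 (SE), adjusted p = 0.0482 (edgeR). The Ccn1 call was close to the threshold. Neither gene was called in an RA response.

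Sparcl1 (hevin, a relative of Sparc known for its role at synapses, ENSMUSG00000029309, chr5:104226288-104262065) had the highest RA fold change of the 45 genes in both genotypes. It was at 0.845, 1.699 and 0.305 CPM in WT NO against 0.556, 1.27 and 1.42 in KO NO, and 27, 28.5 and 22.96 in WT RA against 49.8, 81.04 and 106 in KO RA. Both treated groups lay far above both untreated groups, by 4.79 ± 0.58 (SE), adjusted p = 0.00999 (edgeR) in WT and 6.18 ± 0.61 (SE), adjusted p = 0.000483 (edgeR) in KO. All 3 KO RA libraries were above all WT RA libraries, a difference that was not called (1.59 ± 0.49 (SE), adjusted p = 0.145, edgeR). The WT response was called under 20 of 21 other settings and the KO response under 21 of 21, and the test of their difference gave 1.39 ± 0.72 (SE), adjusted p = 0.633 (edgeR).

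Tenascin C (Tnc, ENSMUSG00000028364, chr4:63878014-63965443), an anti-adhesive hexameric glycoprotein of the embryonic nervous system and of wounds, was low in untreated cells of both genotypes. It was at 0.598, 0.369 and 1.43 CPM in WT NO against 0.585, 0.592 and 0.5301 in KO NO, and 4.23, 3.295 and 1.86 in WT RA against 24.8, 18.6 and 56.4 in KO RA. KO RA libraries were above every other library, by 3.41 ± 0.55 (SE), adjusted p = 0.0165 (edgeR) over WT RA and 5.86 ± 0.62 (SE), adjusted p = 0.000744 (edgeR) over KO NO. The WT response had the same sign, with groups apart, and was not called (1.94 ± 0.54 (SE), adjusted p = 0.164, edgeR). The difference between the responses was 3.91 ± 0.77 (SE), adjusted p = 0.158 (edgeR), and 3.3 with an adjusted p of 0.0395 (edgeR) without KO RA replicate 3.

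The thrombospondins Thbs1 and Thbs2 and periostin (Postn) were called in the KO response alone, and the difference between the responses was not called for any of them. Thbs1, an activator of latent TGF-β and a ligand of CD47, was at 4.68, 4.62 and 9.76 CPM in WT NO against 5.26, 3.14 and 6.14 in KO NO, and 4.56, 10.1 and 4.297 in WT RA against 24.7, 16.5 and 56.1 in KO RA. KO RA was above each other group, by 2.74 ± 0.54 (SE), adjusted p = 0.0171 (edgeR) over KO NO and 2.35 ± 0.54 (SE), adjusted p = 0.0604 (edgeR) over WT RA, the latter not called. Thbs2, its close relative, was at 0.422, 0.665 and 2.65 CPM in WT NO against 0.234, 0.355 and 0.112 in KO NO, and 1.297, 1.89 and 0.4297 in WT RA against 1.71, 1.84 and 2.77 in KO RA. It was low everywhere and was called in the KO response (3.14 ± 0.81 (SE), adjusted p = 0.047, edgeR). Without treatment it was lower in KO, with groups apart and not called (-2.4 ± 0.79 (SE), adjusted p = 0.209, edgeR), but the difference was -1.2 without WT NO replicate 3, which at 2.65 CPM was the highest of its group. Thbs2 lies on chromosome 17, where the median over 794 tested genes in KO NO against WT NO was -0.47, against -0.02 over all genes. Other chromosomes had medians above 0, such as 0.17 on chromosome 7 (Serpinh1) in that comparison. In KO RA against WT RA, medians were 0.30 on chromosome 9 (Loxl1) and 0.26 on chromosome 3 (Ccn1), against 0.09 over all genes.

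Postn, an integrin ligand of connective tissue, was at 0.211, 0.222 and 0.884 CPM in WT NO against 0.731, 0.385 and 1.03 in KO NO, and 1.83, 0.969 and 1.15 in WT RA against 5.37, 1.804 and 80.7 in KO RA. The KO response was called (5.33 ± 1.26 (SE), adjusted p = 0.0357, edgeR) but rested in size on KO RA replicate 3, without which it was 2.31 (adjusted p = 0.0471, edgeR). WT RA and KO RA overlapped. Fibronectin (Fn1), the adhesive glycoprotein that integrins assemble into fibrils, was at 55.9, 63.1 and 35.7 CPM in WT NO against 72.8, 55.1 and 67.6 in KO NO, and 71.01, 91.6 and 61.7 in WT RA against 144, 132 and 105 in KO RA. KO RA was apart above WT RA and KO NO, by 0.76 ± 0.26 (SE), adjusted p = 0.188 and 0.96 ± 0.26 (SE), adjusted p = 0.0585 (edgeR), neither called. Sparc was at 211, 188 and 168 CPM in WT NO against 279, 168 and 237 in KO NO, and 123, 190.5 and 125 in WT RA against 212, 155 and 195 in KO RA, and its groups overlapped in all 4 pairwise comparisons. Matn2, a filament-forming matrilin, was under 1.5 CPM in every library and was not called.

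**Figure D4:**
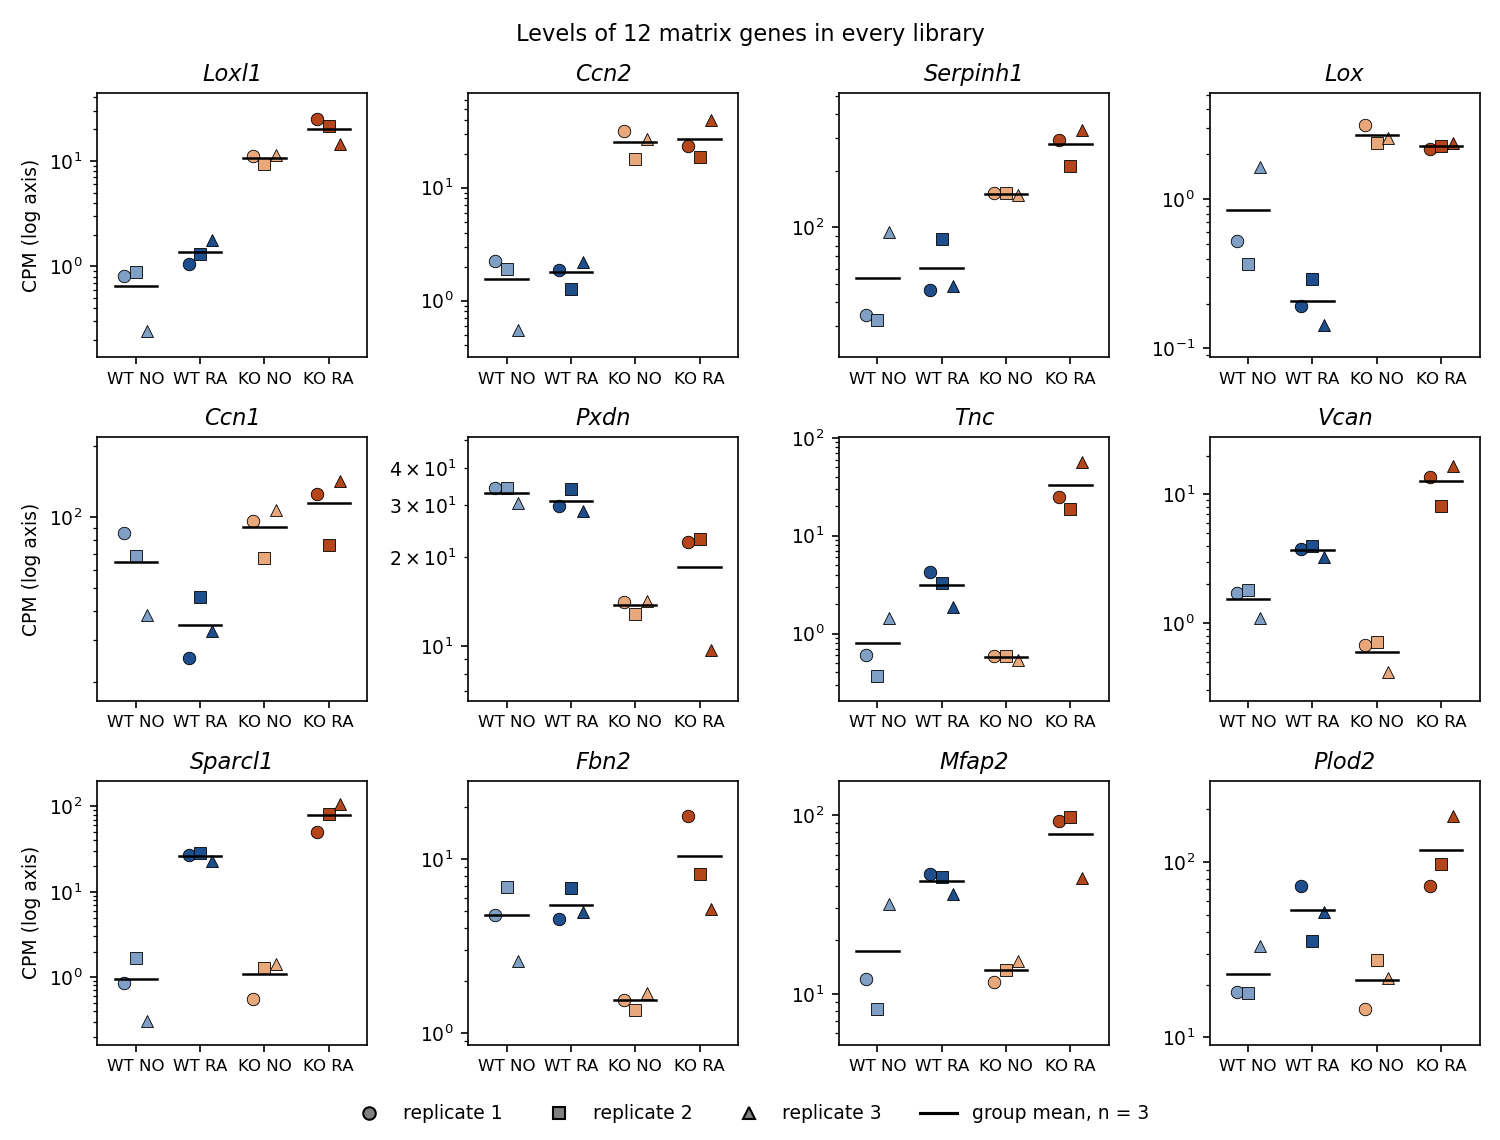
CPM of 12 matrix genes (log axis, 1 panel per gene) in the 4 groups. Each symbol is 1 library (circle, square and triangle for replicates 1 to 3) and the line is the group mean. Loxl1 and Ccn2 are higher in all 6 KO libraries than in all 6 WT libraries, Sparcl1 is higher in all 6 RA libraries than in all 6 untreated ones, and Tnc and Vcan are highest in KO RA.

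Versican (Vcan, ENSMUSG00000021614, chr13:89803431-89890814), the large chondroitin sulfate proteoglycan that binds hyaluronan, was the one gene of the 45 whose genotypes were apart in opposite directions in the untreated and the treated state. It was at 1.72, 1.81 and 1.098 CPM in WT NO against 0.673, 0.7104 and 0.419 in KO NO, and 3.795, 3.97 and 3.25 in WT RA against 13.6, 8.17 and 16.5 in KO RA. KO NO lay below WT NO (-1.35 ± 0.35 (SE), adjusted p = 0.105, edgeR, not called) and KO RA above WT RA (1.79 ± 0.34 (SE), adjusted p = 0.0324, edgeR). RA was followed by a rise in KO of 4.4 ± 0.38 (SE), adjusted p = 0.000233 (edgeR), which was called under 21 of 21 other settings. The WT response was 1.25 ± 0.34 (SE), adjusted p = 0.15 (edgeR), with groups apart and not called. The difference between the responses, 3.15 ± 0.48 (SE), adjusted p = 0.0825 (edgeR), had the smallest p of the 45 and was 2.91 with an adjusted p of 0.0201 (edgeR) without KO RA replicate 3. Vcan lies on chromosome 13, where the median over 648 tested genes was -0.36 in KO NO against WT NO and -0.15 in KO RA against WT RA.

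Of the basement membrane linkers, which join laminin and collagen IV networks, Nid1 (chr13:13612071-13686860) was at 1.27, 1.18 and 3.38 CPM in WT NO against 1.404, 1.98 and 2.29 in KO NO, and 3.03, 2.86 and 1.67 in WT RA against 15.2, 4.46 and 6.34 in KO RA. KO RA was above KO NO in every library (2.19 ± 0.55 (SE), adjusted p = 0.0423, edgeR), and replicate 1 was more than 2 times the others of its group. Its relative Nid2 was far more abundant, at 92.4, 78.7 and 114 CPM in WT NO against 153, 123 and 144 in KO NO, and 68.8, 72.2 and 60.8 in WT RA against 73.1, 86.8 and 28.5 in KO RA. It was higher in KO NO than in WT NO and lower in KO RA than in KO NO, with groups apart, and neither difference was called (0.56 ± 0.34 (SE), adjusted p = 0.595 and -1.15 ± 0.35 (SE), adjusted p = 0.0791, edgeR). Both were called without KO RA replicate 3, at 0.57 (adjusted p = 0.0435) and -0.81 (adjusted p = 0.0112, edgeR).

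Peroxidasin (Pxdn), the enzyme that forms sulfilimine crosslinks in collagen IV, had lower values in KO cells, without a call. It was at 34.1, 34.1 and 30.4 CPM in WT NO against 14.1, 12.8 and 14.2 in KO NO, and 29.8, 34.1 and 28.6 in WT RA against 22.5, 23.04 and 9.705 in KO RA. The 3 KO NO libraries were below all WT libraries, and KO RA was below WT RA. The differences were -1.26 ± 0.29 (SE), adjusted p = 0.0667 and -0.74 ± 0.28 (SE), adjusted p = 0.225 (edgeR), neither called. Without KO RA replicate 3 the untreated difference was -1.25 with an adjusted p of 0.00028 (edgeR), and it was called under 9 of 21 other settings. Perlecan (Hspg2) and agrin (Agrn), heparan sulfate proteoglycans of basement membranes, lay between 7.73 and 22.4 CPM in all libraries and were called in no comparison.

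Small leucine-rich proteoglycans, which bind collagen fibrils and growth factors, were low apart from decorin. Fmod and Prelp did not pass the filter. Bgn had at most 3 counts in every KO NO library and reached 1.58, 0.374 and 0.09903 CPM in KO RA, a mean at least 7.88-fold higher than the floor of 3 counts per library. KO RA replicate 3 held 1 count. In WT, Bgn was at 0.0352, 0.111 and 0.274 CPM untreated and at 0.913, 0.533 and 1.003 after RA, also apart and not called. Lum and Ogn were at most 6.04 and 1.19 CPM in any library. Decorin (Dcn) was at 13.9, 14.5 and 3.35 CPM in WT NO against 7.46, 7.61 and 8.51 in KO NO, and 29.2, 37.5 and 30.1 in WT RA against 22.95, 12.7 and 345 in KO RA. It was apart above the untreated group in both genotypes, without a call, and its KO response was 4.01 with KO RA replicate 3 and 1.17 without it. Its difference between KO RA and WT RA turned from 1.97 to -0.86 when that library was left out.

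Among genes of elastic fibres and their microfibrils, the fibrillin Fbn2 (ENSMUSG00000024598, chr18:58141695-58343645), which forms the microfibril core in embryonic tissue, was at 4.75, 6.91 and 2.59 CPM in WT NO against 1.55, 1.36 and 1.702 in KO NO, and 4.52, 6.83 and 4.97 in WT RA against 17.7, 8.24 and 5.15 in KO RA. KO NO was below every other library, and the rise with RA in KO was 2.75 ± 0.48 (SE), adjusted p = 0.0101 (edgeR), against 0.20 in WT, which was -0.10 without WT NO replicate 3. The difference between the responses was 2.56 ± 0.65 (SE), adjusted p = 0.327 (edgeR) and passed without KO RA replicate 3 (adjusted p = 0.037, edgeR). Fbn1, the other fibrillin, was at 4.79, 5.87 and 6.098 CPM in WT NO against 3.36, 2.75 and 3.12 in KO NO, and 3.56, 5.57 and 2.67 in WT RA against 8.75, 6.16 and 4.46 in KO RA, called in no comparison, with a difference between the responses of 1.58 ± 0.46 (SE), adjusted p = 0.389 (edgeR). Both fibrillins thus had their lowest group mean in KO NO and their highest in KO RA.

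Mfap2 (ENSMUSG00000060572, chr4:140737729-140743295), a microfibril-associated glycoprotein, was at 12.04, 8.24 and 31.7 CPM in WT NO against 11.7, 13.6 and 15.2 in KO NO, and 46.99, 45.2 and 36.3 in WT RA against 92.4, 97.5 and 44.6 in KO RA. KO RA was above KO NO in every library (2.53 ± 0.47 (SE), adjusted p = 0.013, edgeR). WT RA was above WT NO too, where WT NO replicate 3 came close to it, and that response was not called (1.3 ± 0.45 (SE), adjusted p = 0.254, edgeR). Of the other 8 elastic fibre genes tested (Fbln1, Fbln2, Fbln5, Fbn1, Efemp1, Efemp2, Emilin1 and Mfap4), none was called in any comparison. Efemp2 (fibulin 4), which guides elastin crosslinking, was nearly level, with group means between 30.2 and 30.7 CPM. Fbln1 was at 22.5, 23.9 and 28.9 CPM in KO NO and 90.2, 74.9 and 13.4 in KO RA, a response of 1.71 (adjusted p = 0.00279, edgeR) without KO RA replicate 3 and 1.25 with it. Efemp1 (fibulin 3) was at 0.246, 0.148 and 0.6403 CPM in WT NO against 1.901, 1.48 and 1.897 in KO NO, and 0.144, 1.21 and 0.0477 in WT RA against 2.34, 1.26 and 1.49 in KO RA. The KO groups were apart above the WT groups in both states, by 2.32 and 1.85, without a call (adjusted p = 0.312 and 0.309, edgeR). Elastin itself (Eln) was at most 0.366 CPM and not tested.

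In the collagen group the clearest difference between genotypes was Loxl1 (ENSMUSG00000032334, chr9:58195014-58220495), the lysyl oxidase that crosslinks elastin. It was at 0.8095, 0.887 and 0.244 CPM in WT NO against 11.02, 9.35 and 11.2 in KO NO, and 1.06, 1.31 and 1.77 in WT RA against 24.7, 21.3 and 14.4 in KO RA. Every KO library exceeded every WT library by more than 5 times, with differences of 4.03 ± 0.44 (SE), adjusted p = 0.00233 (edgeR) without treatment and 3.87 ± 0.43 (SE), adjusted p = 0.00238 (edgeR) after RA, and both calls were kept under 20 of 20 other settings. Lox (ENSMUSG00000024529, chr18:52649136-52663110), the founding lysyl oxidase, was at 0.528, 0.369 and 1.65 CPM in WT NO against 3.13, 2.398 and 2.57 in KO NO, and 0.192, 0.291 and 0.143 in WT RA against 2.16, 2.28 and 2.38 in KO RA. All KO libraries were again above all WT libraries, and the difference was called after RA (3.42 ± 0.59 (SE), adjusted p = 0.0229, edgeR) but not without it (1.66 ± 0.52 (SE), adjusted p = 0.191, edgeR), where it was 2.58 (adjusted p = 0.0209, edgeR) without WT NO replicate 3. Lox was lower in WT RA than in WT NO with groups apart and no call (difference -2.01 ± 0.58 (SE), adjusted p = 0.173, edgeR), and the difference was -1.09 without WT NO replicate 3.

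Serpinh1 (ENSMUSG00000070436, chr7:98994220-99005076), the endoplasmic reticulum chaperone of procollagen, was at 34.2, 32.1 and 93.9 CPM in WT NO against 153, 153 and 148 in KO NO, and 46.2, 86.6 and 48.6 in WT RA against 292, 213 and 328 in KO RA. All 6 KO libraries were above all 6 WT libraries. The difference was called after RA (2.2 ± 0.43 (SE), adjusted p = 0.0376, edgeR) and not without treatment (1.5 ± 0.42 (SE), adjusted p = 0.139, edgeR), where WT NO replicate 3 was the highest of the WT libraries. Without that library it was 2.19 (adjusted p = 0.0209, edgeR). The test of the difference between the RA responses, 0.70 ± 0.58 (SE), adjusted p = 0.732 (edgeR), gave no call, and its sign turned without both libraries that stood apart (-0.14).

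The third lysyl oxidase tested, Loxl2 (ENSMUSG00000034205, chr14:69846209-69933283), which acts on collagen IV, was called in the KO response and not between genotypes. It was at 10.7, 12.8 and 27.3 CPM in WT NO against 6.199, 16.9 and 10.2 in KO NO, and 73.6, 45.2 and 46.8 in WT RA against 49.6, 68.2 and 38.1 in KO RA. RA libraries were above untreated ones in both genotypes, by 2.23 ± 0.45 (SE), adjusted p = 0.0192 (edgeR) in KO and 1.7 ± 0.45 (SE), adjusted p = 0.14 (edgeR) in WT, the latter not called but at 0.0275 without KO RA replicate 3. Plod2 (ENSMUSG00000032374, chr9:92424119-92490494), the lysyl hydroxylase of collagen telopeptides, was at 18.1, 17.9 and 33.2 CPM in WT NO against 14.4, 27.6 and 21.7 in KO NO, and 73.02, 35.3 and 52.1 in WT RA against 72.6, 97.1 and 182 in KO RA. Its KO response was 2.46 ± 0.43 (SE), adjusted p = 0.0102 (edgeR) and its WT response 1.21 ± 0.42 (SE), adjusted p = 0.253 (edgeR), with groups apart in both. Pcolce, which enhances removal of the procollagen C-propeptide, was at 33.2, 26.5 and 65.9 CPM in WT NO against 14.9, 12.1 and 19.98 in KO NO, and 33.2, 49.4 and 31.4 in WT RA against 48.2, 26.8 and 28.4 in KO RA. It was apart below WT NO in KO NO without a call (-1.42 ± 0.38 (SE), adjusted p = 0.121, edgeR), and -0.93 without WT NO replicate 3. The prolyl hydroxylase subunits P4ha1 and P4ha2 and the lysyl hydroxylase Plod1 lay between 7.53 and 52.8 CPM and were called in no comparison.

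Of the proteases and inhibitors, 1 was called, the metalloprotease inhibitor Timp2 (ENSMUSG00000017466, chr11:118191887-118246566), which also helps activate MMP2. It was at 5.17, 4.25 and 6.28 CPM in WT NO against 4.18, 2.78 and 3.18 in KO NO, and 8.02, 10.03 and 8.12 in WT RA against 10.1, 6.603 and 8.02 in KO RA. RA libraries lay above untreated ones in both genotypes, by 1.28 ± 0.27 (SE), adjusted p = 0.0204 (edgeR) in KO and 0.74 ± 0.26 (SE), adjusted p = 0.267 (edgeR) in WT, the latter not called. Timp1, a secreted inhibitor, was at 4.33, 4.06 and 41.95 CPM in WT NO against 22.2, 22.6 and 26.5 in KO NO, and 2.93, 3.59 and 2.01 in WT RA against 19.4, 15.3 and 50.01 in KO RA. KO RA was apart above WT RA, by 3.31 ± 0.86 (SE), adjusted p = 0.0916 (edgeR), not called, and at 3.37 with an adjusted p of 0.0099 (edgeR) without WT NO replicate 3. Its lower level in WT RA than in WT NO, -2.56 ± 0.84 (SE), adjusted p = 0.235 (edgeR), was -0.56 without WT NO replicate 3. Timp3, Mmp2, Mmp14 and Adamts1 were called in no comparison, and Adamts5 did not pass the filter.

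Other genes of the matrix were examined as a list of 127, of which 84 were tested. None was called between the untreated genotypes (0.788% of all genes higher and 0.351% lower). An unadjusted p under 0.05 in edgeR was reached there by 4 higher and 12 lower (5.81% and 6.37% of all genes). DESeq2 called 2 and 9 there (3.13% and 3.02% of all genes). In KO RA against WT RA 2 were higher and 1 lower (0.885% and 0.358% of all genes). In WT RA against WT NO 1 was higher and 0 lower (0.321% and 0.0848% of all genes). In KO RA against KO NO 15 were higher and 1 lower (3.89% and 1.59% of all genes). The medians of the 84 in these 4 comparisons were -0.05, 0.35, 0.05 and 0.56, against -0.02, 0.09, -0.01 and 0.11 over all genes. Ltbp1, which anchors latent TGF-β in the matrix, was at 4.33, 3.92 and 4.51 CPM in WT NO against 2.34, 1.69 and 2.18 in KO NO, and 11.7, 13.7 and 9.596 in WT RA against 11.6, 11.3 and 9.31 in KO RA. It rose in both genotypes, by 1.45 ± 0.23 (SE), adjusted p = 0.0339 in WT and 2.38 ± 0.24 (SE), adjusted p = 0.000483 in KO (edgeR).

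Ccn3, another CCN protein, was at 0.04804, 0 and 0 CPM in WT RA and 1.22, 1.53 and 3.07 in KO RA, and Cemip, a hyaluronan depolymerase, at 0.673, 1.26 and 0.477 and 5.73, 5.28 and 10.6. Both were called higher in KO RA (adjusted p = 0.0159 and 0.0389, edgeR). Pcolce2, a paralogue of Pcolce, was the gene called lower in both comparisons with KO RA, at 11.1, 14.6 and 12.5 CPM in WT NO against 15.5, 15.6 and 23.7 in KO NO, and 8.94, 5.62 and 6.64 in WT RA against 2.39, 2.62 and 2.18 in KO RA. The difference was -1.55 ± 0.27 (SE), adjusted p = 0.0221 against WT RA and -2.92 ± 0.27 (SE), adjusted p = 0.000366 against KO NO (edgeR). The prolyl hydroxylase subunit P4ha3, the protease Plat and the calcium-binding glycoprotein Smoc2 were called higher in KO RA than in KO NO, by 4.43, 2.87 and 4.29.

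Some markers of mesenchymal cells rose in the RA responses. The sum of 10 markers (Col1a1, Col1a2, Col3a1, Pdgfra, Pdgfrb, Twist1, Prrx1, Thy1, Snai2 and Meox1) was 25.9 to 55.9 CPM in WT NO against 37.4 to 46.6 in KO NO, and 86.4 to 93.6 in WT RA against 89.7 to 215.6 in KO RA. Of the 10, 3 were called higher in the WT response (Col1a2, Col3a1 and Prrx1) and 6 in the KO response (these and Col1a1, Snai2 and Meox1). Thy1 went the other way, by -1.66 in WT and -0.87 in KO, and Twist1 changed by 0.11 and 0.33, without a call. Contractile genes summed to 11.05 to 105.6 CPM in WT NO against 15.96 to 29.2 in KO NO, and to 45.3 to 222 in WT RA against 151 to 1261 in KO RA, with 2 of 5 called higher in the KO response. Between genotypes none of either list was called. Of the 7 progenitor markers, 1 was called lower in KO in each genotype comparison and 3 were called higher in the KO response. The 8 neuronal genes (Tubb3, Map2, Dcx, Elavl3, Elavl4, Stmn2, Rbfox3 and Snap25) summed to 80.8 to 112.6 CPM in WT NO against 72.3 to 90.5 in KO NO, and to 142 to 163 in WT RA against 146 to 208 in KO RA, and Map2 and Tubb3 were called higher in the KO response. Stmn2 alone was at 164 CPM in KO RA replicate 3. Dcx, Elavl4 and Stmn2 rose with RA in both genotypes without a call. Rbfox3 had RA responses of -2.73 in WT and -1.77 in KO, Snap25 of -0.07 and -0.27, and Elavl3 of -0.57 and 0.85, none called. Of the 6 astroglial genes, 3 were tested. Fabp7, which radial glia also express, was called higher in KO RA than in WT RA and in KO NO, at 40.6, 15.6 and 155 CPM against 5.04, 2.04 and 7.11 and against 0.146, 0.266 and 0.391. Slc1a3 and Aldh1l1 had KO responses of -0.04 and -0.43 and were called in no comparison, and Gfap, Aqp4 and S100b were at most 0.191, 0.198 and 0.0292 CPM in any library. Of the 6 blood cell genes, Cd68 was at 1.68 to 5.28 CPM and was called in no comparison, Hba-a1, Ptprc, Spi1 and Csf1r were at most 0.792, 0.322, 0.272 and 0.0585 CPM in any library, and Hbb-bs was at 0 counts. Of the endothelial list (Pecam1, Cdh5, Kdr, Tie1, Tek and Emcn), 3 of the 4 genes tested were called higher in the KO response, where the sum was 1.07 to 2.01 CPM in KO NO and 6.44 to 14.6 in KO RA. The part of other cell types in the matrix results was not tested.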

How the data were processed

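RNA-Seq was done on 12 libraries in 4 groups of 3 passages, so p-values measure the spread between passages. The authors aligned reads to GRCm39 with STAR and quantified them with Salmon in nf-core/rnaseq at default settings. The values the authors deposited are estimated counts per gene, an expected count scaled to each library's total and not normalized between libraries. Over 3851 genes above 0 in 1 library they fell with exonic length (Spearman -0.685), as values corrected for gene length do. They sum to 17370069 to 30738717 per library, and groups were taken from the sample labels.

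Counts were rounded, genes filtered with filterByExpr (minimum 10 counts), and 16502 of 57010 genes fitted in edgeR 4.0.16 (R 4.3.3) with TMM factors, 1 mean per group over all 12 libraries, robust quasi-likelihood F tests and Benjamini-Hochberg adjustment, at a threshold of 0.05. The 4 pairwise comparisons and the difference of the RA responses (interaction) were tested. The code was tested on simulated data. SE is the absolute log2 fold change divided by the square root of F. A group was at the floor with at most 3 counts in every library. Alternatives were DESeq2 1.42.0, limma-voom (limma 3.58.1) with quality weights, other filters and scalings, only the groups compared, a replicate block and leaving out each library. Leaving out both libraries that stood apart was chosen after seeing the data.

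The 50 genes and all gene and marker lists were chosen with earlier results of these data known. Values in every library are given for called genes, the 6 with the smallest p in each comparison and the 5 with the highest mean. Dcn, Bgn, Efemp1 and Fbln1 were added after their values were seen. Of other matrix genes, at most 4 higher and 4 lower calls per comparison are named.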

Additional observations from a re-analysis of the deposited data

How the results depend on the processing

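Counts of matrix genes called are given as higher and lower, for the genotypes untreated, the genotypes after RA, the RA response of WT, that of KO and the interaction, in that order. The reported counts were 2 and 0, 7 and 0, 1 and 0, 12 and 0, and 0 and 0. DESeq2 on all libraries gave 4 and 4, 15 and 0, 4 and 2, 21 and 1, and 5 and 0, and DESeq2 on the groups compared only gave 5 and 5, 14 and 0, 8 and 1, and 23 and 0 for the first 4. Of all genes, DESeq2 on the groups compared only called 6.36% and 6.04%, 3.05% and 1.38%, 6.09% and 5.45%, and 6.92% and 3.64%. limma-voom with quality weights gave 10 and 6, 21 and 1, 13 and 1, 28 and 1, and 7 and 0, where 2.41 to 15.1% of all genes were called in 1 direction. edgeR on the groups compared only gave 2 and 1, 1 and 0, 1 and 0, and 4 and 0. Of all genes it called 2.11% and 1.62%, 0.0667% and 0%, 1.39% and 1.02%, and 0.812% and 0.0848%. At least 10 counts in every library gave 1 and 4 higher in the genotype comparisons (0.216% and 0.466% of all genes). DESeq2 size factors gave 1 lower in the first (0.400% of all genes). Without both libraries that stood apart the counts were 8 and 4, 17 and 2, 14 and 1, 27 and 1, and 6 and 0. Leaving out 1 library at a time gave 2 to 4 higher and 0 to 4 lower, 1 to 11 and 0, 0 to 7 and 0, 4 to 20 and 0 to 1, and 0 to 4 and 0. In these fits 0 to 8.82% of all genes were called in 1 direction.

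The median over the matrix genes changed sign for KO NO against WT NO with limma-voom (0.088), without WT NO replicate 3 (0.13) and without both libraries (0.15). For WT RA against WT NO it did so without WT NO replicate 2 (-0.0086) or WT RA replicate 2 (-0.17). Leaving out 1 library at a time gave medians of -0.45 to 0.13 and -0.17 to 0.70. The sum over the genes in KO NO was 1169 CPM without TMM factors, against 1010. The cause of these changes was not tested, except that the smaller fits hold fewer libraries.

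Over 22 called results, 356 values under other settings kept the call and 101 lost it, touching 16 of them. Over the 15 that were among the 6 smallest p of a comparison and not called, 244 stayed so and 57 passed. None of these called or not called results changed direction. Other differences that were not called did, among them Dcn in KO RA against WT RA (1.97 to -0.86 without KO RA replicate 3). Libraries with the same replicate number did not deviate together (correlations of -0.24 to 0.096, 0 of 18 over 0.1). With 3 libraries a group, this cannot decide whether the numbers pair them. A replicate block gave 2, 3, 1, 9 and 0 higher (0.303, 0.297, 0.0545, 2.08 and 0% of all genes) and none lower (at most 0.751% of all genes). Depth limits genes such as Bgn, Lox and Thbs2, which lay under 4 CPM in every library.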
